A study of Oryctolagus cuniculus with 8 samples.

Results

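Most of the genes described here encode parts of the contractile apparatus of smooth muscle: ACTA2 (smooth muscle alpha actin), TPM1 and TPM2 (tropomyosins) and CALD1 (caldesmon). KCNMB1 encodes an accessory subunit of a potassium channel. All 5 genes were followed in cultured rabbit cells before and after reprogramming to induced pluripotent stem (iPS) cells. The members were all probes of the array whose RefSeq transcript belongs to one of these 5 genes, which gave 11 of 43603 probes. TPM1 had 7 probes (NM_001105688), and ACTA2 (NM_001101682), TPM2 (NM_001105686), CALD1 (NM_001082256) and KCNMB1 (NM_001082225) had 1 each. All 11 probes were tested in every comparison.

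In smooth muscle, force comes from myosin pulling on thin filaments made of actin. Tropomyosin lies along these filaments and stabilises them, and caldesmon binds actin and tropomyosin and restrains the myosin until calcium and calmodulin relieve the block. The KCNMB1 protein makes the large conductance calcium-activated potassium channel more sensitive to calcium, which favours relaxation. None of these genes marks smooth muscle alone: ACTA2 is also made by myofibroblasts, the contractile form of fibroblasts, and TPM1 and CALD1 have forms that most cell types use in their cytoskeleton.

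All cells came from Dutch rabbits, and each of the 8 samples was measured on 1 array of 1 colour, with total RNA labelled with Cy3. The late iPS group held the line iPS-L1, made from liver cells, at passage 23 and the line iPS-S1, made from stomach cells, at passage 22. The early iPS group held the same lines at passages 7 and 6. The embryonic stem (ES) group held the lines rdES4 and rdES2-1, and the somatic group held cultured liver cells and cultured stomach cells. Each tissue of origin is thus represented by 1 iPS line, and the reprogramming factors are not named in the labels. Medium went with cell type (stem cell medium for iPS and ES cells, somatic cell medium for the rest), so the effects of the 2 cannot be told apart. The labels do not say that the 2 samples of a group came from separate animals or cultures, so p-values measure only the spread between these samples, which may be partly technical.

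A level is the log2 signal of a probe minus the 75th percentile of its array, so that 0 is that percentile and 1 unit is a doubling. Levels serve to compare arrays for the same probe, not different probes. That percentile, on the linear scale, was 273.8 to 341.0 for the 6 iPS and ES arrays, against 163.4 in liver cells and 154.4 in stomach cells. The pluripotency factor POU5F1 had levels of 6.69 to 7.62 in iPS and ES cells, against -3.62 in liver cells and -3.46 in stomach cells. Albumin (ALB), the defining hepatocyte product, failed to reach the well above background mark on every array, liver cells included. Smooth muscle myosin heavy chain, MYH11, the more specific marker of smooth muscle, had a signal of 15.95 in liver cells, well above background, and 5.485 in stomach cells, not well above background. It also read 14.15, above background, in rdES2-1, and 1.774 to 5.538, not above it, on the other 5 arrays. All 4 fibroblast markers with a probe (DCN, MGP, CAV1 and MMP2) were lower in iPS and ES cells, and their summed linear level was 2.08 to 3.14 in iPS cells and 1.881 to 2.208 in ES cells, against 198.3 in liver cells and 105.9 in stomach cells. The DCN probe reached the mark on 0 of 4 iPS and 0 of 2 ES arrays. Of the remaining marker lists, 2 of 2 pluripotency genes were higher in iPS than in somatic cells, 1 of 5 hepatocyte genes was higher and 1 lower, 1 of 2 gastric genes was higher, and 1 of 1 leukocyte gene was lower (limma). Among the higher ones, PODXL (pluripotency) and ATP4A (gastric) passed the filter for testing only through iPS and ES arrays, which largely set their direction. The part of fibroblasts or other mesenchymal cells in the results below was not tested, and in bulk RNA fewer cells of a type and less RNA per cell cannot be told apart.

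Of the 5 genes, 4 were lower in iPS and in ES cells than in somatic cells, and KCNMB1 did not pass the test. By probe, 10 of 11 fell and 0 rose in iPS against somatic cells, where 32.4% of all 28854 tested probes fell and 34.2% rose (limma, Benjamini-Hochberg adjusted p under 0.05). In ES against somatic cells again 10 of 11 fell and 0 rose, where 29.7% of all tested probes fell and 34.2% rose. Since 7 of the 11 probes belong to TPM1, the count by gene was 4 of 5 in each comparison. TPM2 is among the 4, and it passed the filter for testing only through the somatic arrays, which largely set its direction. The median log2 difference of the 5 genes was -1.40 in iPS against somatic cells, with a median of 0.016 over all tested probes, and -1.68 in ES against somatic cells, with 0.067 over all tested probes. These 2 comparisons share the somatic arrays.

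**Figure D1:**
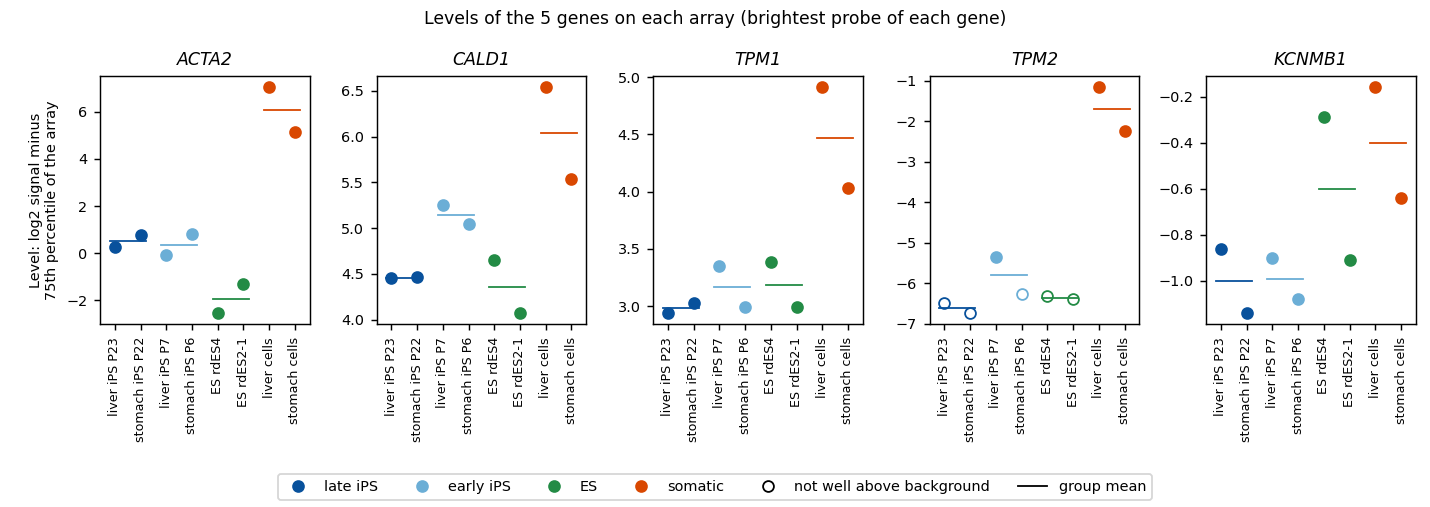
Level of each gene (log2 signal minus the 75th percentile of the array, vertical axes on different scales) on the 8 arrays, with 1 point per array, coloured by group, and lines at the group means. For ACTA2, CALD1, TPM1 and TPM2 both somatic arrays lie above all others, while for KCNMB1 rdES4 at -0.29 lies between liver cells at -0.16 and stomach cells at -0.64; open points were not well above background.

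ACTA2, the actin isoform that is built into the thin filaments of smooth muscle and myofibroblasts, showed the largest measured difference of the 5 genes. Its level was 0.28 and 0.76 in late iPS cells from liver and stomach, and -0.07 and 0.80 in early iPS cells from liver and stomach. In ES cells it was -2.54 in rdES4 and -1.30 in rdES2-1, against 7.03 in liver cells and 5.13 in stomach cells. The iPS arrays thus formed a band between the ES arrays and the somatic arrays, with no overlap on either side. As raw signal, the probe read 323.4 to 529.2 on iPS arrays and 47.17 to 126.3 on ES arrays, against 21290 in liver cells and 5412 in stomach cells.

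The mean level of ACTA2 was 0.44 ± 0.48 in the iPS lines and 6.08 ± 1.34 in somatic cells (SD, n = 2 lines or samples each), a difference of -5.64 ± 0.75 (SE), or 49.8-fold lower (limma, adjusted p = 0.00225). In ES cells the mean was -1.92 ± 0.88 against the same somatic mean (SD, n = 2), a difference of -8.00 ± 0.75 (SE), or 255.1-fold lower (limma, adjusted p = 0.000758). Both calls held under all 4 choices of background correction and scaling. The probe's sequence was not used here, so whether it also binds the closely related actins is not known.

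TPM2, which encodes beta tropomyosin, was well above background in somatic cells and on 1 other array. In iPS cells the probe was well above background on 1 of 4 arrays, early iPS cells from liver, at -5.35. The other 3 iPS arrays read -6.49 and -6.74 in late iPS cells from liver and stomach and -6.26 in early iPS cells from stomach, and the ES arrays rdES4 and rdES2-1 read -6.32 and -6.39, all not well above background. The level was -1.16 in liver cells and -2.25 in stomach cells, far above the rest. These 5 dim values do not measure the level. They show only that the signal lay below what the arrays could tell from background, and the lowest level that carried the mark was -5.54 to -5.36 on the iPS and ES arrays.

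Against somatic cells, TPM2 was lower in iPS cells by a measured difference of -4.50 ± 0.40 (SE, n = 2 lines and 2 samples; limma, adjusted p = 0.000659). The probe entered the tests only through the somatic arrays, so the filter nearly set the direction of its differences from somatic cells. Its p-values rest partly on dim values and add little to that. With the dim arrays raised to their array's lowest signal that carries this mark, the difference was -3.69, or 12.9-fold lower. In ES cells, where neither array measured it, TPM2 was at least 13.6-fold lower than in somatic cells (limma, adjusted p = 0.000608), computed from a mean somatic level of -1.70 and the same floor. The size depended on the background correction: with normexp, a model of background plus signal that compresses dim probes, the difference was -1.64 in iPS and -1.58 in ES cells. Both kept their call.

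TPM1, which encodes alpha tropomyosin, had high signal on every array and a smaller difference. The brightest of its 7 probes had levels of 2.94 and 3.03 in late iPS cells from liver and stomach, and 3.35 and 2.99 in early iPS cells from liver and stomach. It had 3.39 in rdES4 and 2.99 in rdES2-1, against 4.91 in liver cells and 4.03 in stomach cells. The 6 iPS and ES arrays thus lay within 1 narrow band that did not reach the stomach cells.

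Mean TPM1 levels were 3.08 ± 0.10 in the iPS lines and 3.19 ± 0.28 in ES cells, against 4.47 ± 0.62 in somatic cells (SD, n = 2 each). TPM1 was 2.63-fold lower in iPS cells, with a log2 difference of -1.40 ± 0.33 (SE; limma, adjusted p = 0.0148). In ES cells the difference was -1.28 ± 0.33 (SE; limma, adjusted p = 0.0205), and it missed the threshold without rdES2-1 (-1.08, adjusted p = 0.1004).

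The 7 TPM1 probes moved together. Their log2 differences were -1.47 to -1.25 in iPS against somatic cells and -1.39 to -1.23 in ES against somatic cells, and all 7 passed the test in each (limma, adjusted p of 0.0110 to 0.0401 and of 0.0141 to 0.0436). Over the 8 arrays, the 21 pairs of probes had Pearson r of 0.984 to 0.999, a description only, since the probes share transcript and arrays. After each probe was centred on its own mean, the SD across the 7 probes was 0.021 to 0.082 on any array, smaller than the SD between the samples of the early iPS, ES or somatic group. The probes carry the same RefSeq accession, so isoforms of TPM1 that differ between smooth muscle and other cells could not be told apart.

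**Figure D2:**
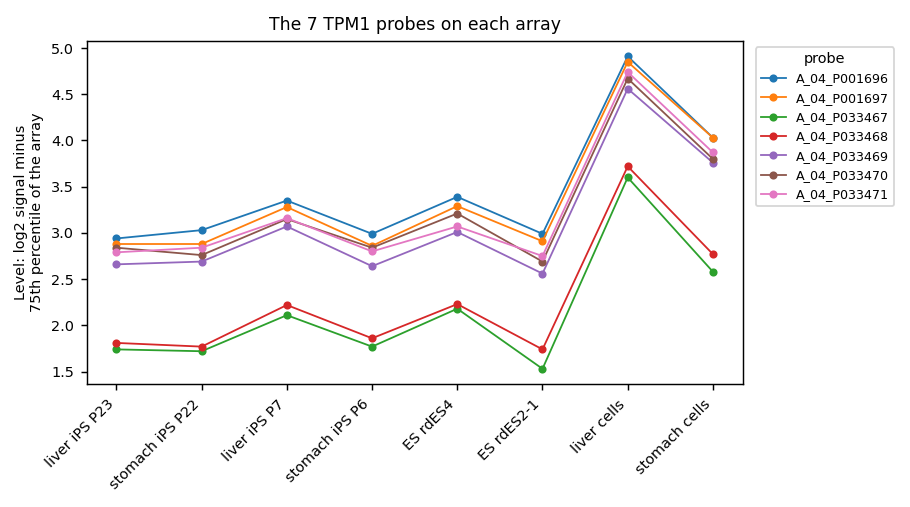
Level of each of the 7 TPM1 probes (log2 signal minus the 75th percentile of the array) on the 8 arrays, with 1 line per probe. The lines run in parallel and all peak in liver cells, with stomach cells next; the differences between lines are differences between probes, not between transcripts.

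CALD1, the caldesmon gene, had high signal on every array too. Its level was 4.45 and 4.47 in late iPS cells from liver and stomach, and 5.25 and 5.04 in early iPS cells from liver and stomach. In ES cells it was 4.65 in rdES4 and 4.07 in rdES2-1, against 6.54 in liver cells and 5.54 in stomach cells. The somatic arrays stood above the rest, but the gap between stomach cells and early iPS cells from liver was small.

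Means of CALD1 were 4.80 ± 0.07 in the iPS lines and 4.36 ± 0.41 in ES cells, against 6.04 ± 0.71 in somatic cells (SD, n = 2 each). The log2 difference was -1.24 ± 0.38 (SE) in iPS against somatic cells, or 2.36-fold lower (limma, adjusted p = 0.0360), and -1.68 ± 0.38 (SE) in ES against somatic cells, or 3.20-fold lower (limma, adjusted p = 0.0141). The iPS call was the weakest of the 4 genes: it was lost under quantile scaling (-1.04, adjusted p = 0.0682) and also without the late liver iPS array (-1.04, adjusted p = 0.0794), the late stomach iPS array (-1.10, adjusted p = 0.0532), the liver cells (-0.74, adjusted p = 0.0788) or either ES array (adjusted p = 0.0509 in each case). The ES call was lost without rdES2-1 (-1.39, adjusted p = 0.0735).

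KCNMB1, the channel subunit, was measured on every array and differed little between them. Its level was -0.86 and -1.14 in late iPS cells from liver and stomach, and -0.90 and -1.08 in early iPS cells from liver and stomach. In ES cells it was -0.29 in rdES4 and -0.91 in rdES2-1, against -0.16 in liver cells and -0.64 in stomach cells. All 4 iPS arrays lay below both somatic arrays, an ordering that 38.1% of all tested probes showed, while the ES and somatic arrays overlapped. The other 4 genes had the same ordering, and they were also lower on both ES arrays than on both somatic arrays, as were 39.3% of all tested probes.

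The mean of KCNMB1 was -0.99 ± 0.16 in the iPS lines and -0.60 ± 0.44 in ES cells, against -0.40 ± 0.34 in somatic cells (SD, n = 2 each). The log2 difference was -0.59 ± 0.28 (SE, 95% interval -1.32 to 0.13) in iPS against somatic cells, which did not pass the test (limma, adjusted p = 0.119). In ES against somatic cells it was -0.20 ± 0.28 (SE, 95% interval -0.93 to 0.53; limma, adjusted p = 0.562). A fall of 2-fold lies inside the iPS interval and outside the ES interval. The iPS difference passed the threshold with normexp (-0.47, adjusted p = 0.0424), with the scan day as a block (adjusted p = 0.0343) and with the iPS line as a random block (adjusted p = 0.0452).

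**Figure D3:**
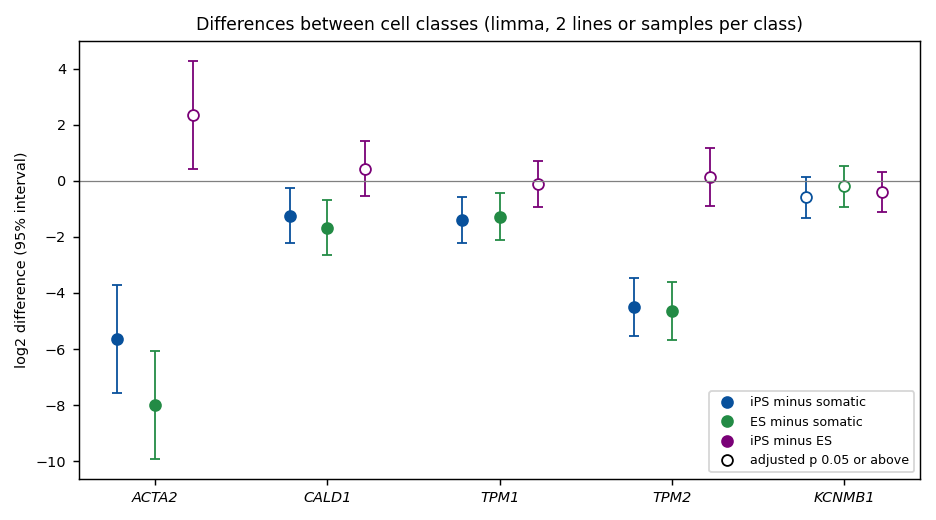
Log2 difference with its 95% interval (vertical axis) for each gene in iPS minus somatic, ES minus somatic and iPS minus ES cells, from limma with 2 lines or samples per class. The intervals of ACTA2, TPM2, TPM1 and CALD1 against somatic cells lie below 0, those of KCNMB1 include 0, and for iPS minus ES only that of ACTA2, at 0.43 to 4.29 before adjustment for multiple tests, excludes it.

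The differences from somatic cells are relative to the scaling. Without any scaling between arrays, the median over all tested probes was 1.027 in iPS and 0.942 in ES against somatic cells, with the somatic arrays dimmer as a whole, and 2 of the 11 member probes were called in each comparison, ACTA2 and TPM2. On that scale the iPS differences of CALD1 (-0.23), TPM1 (-0.38) and KCNMB1 (0.42) did not pass, nor did the ES differences of CALD1 (-0.80), TPM1 (-0.40) and KCNMB1 (0.67), with the sign of KCNMB1 turned. Relative to the median of all probes the iPS differences were -1.26, -1.41 and -0.61, and the ES differences -1.74, -1.34 and -0.27. With normexp the median over all probes was -0.405 in iPS and -0.332 in ES against somatic cells, and KCNMB1 relative to it was -0.06 in iPS and 0.14 in ES cells. The split of called probes moved with it: in iPS against somatic cells, 9864 probes were called higher and 9358 lower with the 75th percentile, 7524 and 15237 with normexp, and 16898 and 3589 with no scaling. In ES against somatic cells the split was 9875 higher and 8573 lower with the 75th percentile, 7351 and 14362 with normexp, and 16560 and 3773 with no scaling.

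**Figure D4:**
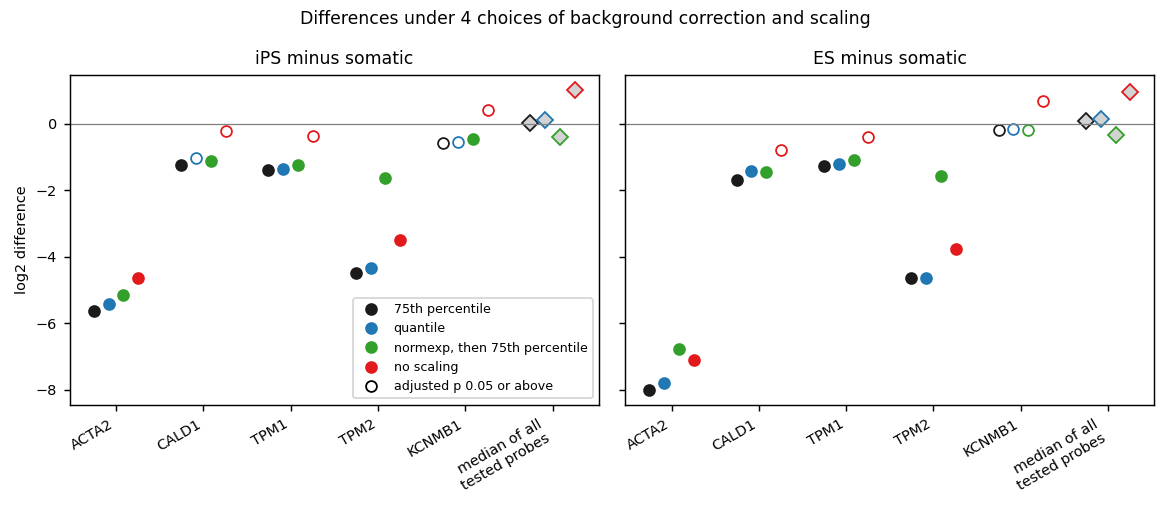
Log2 difference (vertical axis) of each gene under 4 choices of background correction and scaling, in iPS minus somatic (left) and ES minus somatic cells (right), with diamonds for the median of all tested probes and open circles where the adjusted p was 0.05 or above. ACTA2 and TPM2 stay well below the median of all probes under each choice, while KCNMB1 lies above 0 without scaling.

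Between iPS and ES cells, 0 of 11 member probes passed the test (limma), where 0% of the 28854 tested probes did. At an unadjusted p under 0.05, 1 of the 5 genes differed. That gene was ACTA2, which was higher in iPS cells by 2.36 ± 0.75 (SE, n = 2 lines each; 95% interval 0.43 to 4.29), or 5.12-fold, with an unadjusted p of 0.0256 and an adjusted p of 0.606 in limma. All 4 iPS arrays lay above both ES arrays, an ordering in this direction shown by 10.6% of all tested probes. Leaving out each array in turn gave differences of 1.74 to 2.98. The fibroblast list's summed level, 2.08 to 3.14 in iPS and 1.881 to 2.208 in ES cells, overlapped between the groups. Most of this sum came from MMP2, the brightest of the list there and nearly flat, at levels of 0.57 to 0.90. Within that list CAV1 had the same ordering as ACTA2, with -3.57 to 0.36 on the iPS arrays and -3.83 and -4.01 on the ES arrays, a difference of 2.38 ± 0.34 (SE; limma, adjusted p = 0.4003). The differences of MMP2 (-0.04) and MGP (-0.74) did not share its direction, and the part of such cells in the ACTA2 difference was not tested.

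The other genes differed less between iPS and ES cells. The log2 difference was 0.44 ± 0.38 (SE, 95% interval -0.54 to 1.42) for CALD1, -0.12 ± 0.33 (SE, 95% interval -0.95 to 0.72) for TPM1 and -0.39 ± 0.28 (SE, 95% interval -1.12 to 0.33) for KCNMB1, with adjusted p of 0.852, 0.971 and 0.821 in limma. The interval for TPM1 leaves out a 2-fold difference in either direction. For TPM2 no fold is given, since it was below background in ES cells and on 3 of 4 iPS arrays.

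By passage, the ACTA2 difference from ES cells was 2.44 ± 0.72 (SE) in late iPS cells (limma, unadjusted p = 0.0145, adjusted p = 0.454) and 2.28 ± 0.72 (SE) in early iPS cells (limma, unadjusted p = 0.0191, adjusted p = 0.345). Neither passed, and these comparisons share the ES arrays. In late iPS against ES cells 0 of 11 probes were called, with 0.0208% of all probes called, and in early iPS against ES cells 0 of 11, with 0.0416% of all probes called. In each, ACTA2 was the 1 gene with an unadjusted p under 0.05, and its arrays did not overlap, as for 19.4% (late) and 24.3% (early) of all tested probes in this direction. CALD1 was higher in both early iPS arrays than in both ES arrays, by 0.78 ± 0.35 (SE, 95% interval -0.08 to 1.65; limma, adjusted p = 0.465), an ordering in this direction that 24.3% of all tested probes showed. The late iPS mean of CALD1, 4.46 ± 0.02, was 0.09 above the ES mean of 4.36 ± 0.41 (SD, n = 2 each).

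Between passages, 0 of 11 member probes passed in late against early iPS cells (limma), where 0.0277% of all tested probes did, and 0 of 5 genes had an unadjusted p under 0.05. CALD1 showed the clearest shift, with both late arrays below both early arrays, as for 25.3% of all tested probes. Its late mean was 4.46 ± 0.02 and its early mean 5.15 ± 0.15 (SD, n = 2 each), a difference of -0.69 ± 0.35 (SE, 95% interval -1.55 to 0.18; limma, adjusted p = 0.670). By line, late minus early was -0.81 in the liver line and -0.57 in the stomach line. With the line as a replicate block the adjusted p was 0.256. The fibroblast list's summed level was 2.362 and 2.08 in late iPS cells from liver and stomach, against 3.14 and 2.65 in the early ones, but its members went different ways. CAV1 (caveolin, of membrane pits) had -2.67 and -3.57 in the late and 0.36 and -0.31 in the early ones, and MGP (matrix Gla protein) had -1.31 and -0.98 in the late and -6.01, not well above background, and -4.37 in the early ones. MMP2 differed by -0.15 between late and early, and DCN was below background in each. None of the 4 passed the test (limma, adjusted p of 0.1945 for CAV1 and 0.3944 for MGP), and their part in the shift of CALD1 was not tested.

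For ACTA2, late minus early iPS was 0.16 ± 0.72 (SE, 95% interval -1.60 to 1.91), for TPM1 it was -0.18 ± 0.32 (SE, 95% interval -0.96 to 0.59) and for KCNMB1 -0.01 ± 0.27 (SE, 95% interval -0.66 to 0.65), with adjusted p of 0.940 to 0.997 in limma. The intervals of KCNMB1 and of the brightest TPM1 probe leave out a 2-fold change in either direction, and that of ACTA2 does not. Those of some other TPM1 probes reach down to -1.13 and -1.08 and so include a 2-fold fall. TPM2 was measured on 1 of the 4 iPS arrays, so its passages could not be compared.

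The tissue of origin could be described but not tested, with 1 sample or line for each tissue. Liver cells had more of every member than stomach cells. All 11 probes, 7 of them for TPM1, were higher in liver cells, where 50.2% of all tested probes were. Between the ES lines, which have no such tissue, 10 of 11 were higher in rdES4 than in rdES2-1, where 51.0% of all tested probes were. Liver cells shared slide and scan day with rdES4, and stomach cells with rdES2-1. Tissue can therefore not be told apart from slide and scan day. The log2 difference, liver minus stomach cells, was 1.89 for ACTA2, 1.08 for TPM2, 1.00 for CALD1, 0.88 for TPM1 and 0.48 for KCNMB1. Of the 11 probes, 3 were at least 2-fold higher in liver cells, as were 5.15% of all tested probes. The fibroblast markers were split: MGP had 7.16 in liver and 5.18 in stomach cells and CAV1 4.77 and 4.13, while DCN had 4.44 in liver and 5.43 in stomach cells and MMP2 2.72 and 3.19. Their part in the difference was not tested.

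The order of the tissues was not carried over to the iPS lines for ACTA2. In the iPS lines, ACTA2 was lower in the liver line than in the stomach line, by a log2 difference of -0.48 in late and -0.87 in early iPS cells. For CALD1 the difference, liver minus stomach line, was -0.02 in late and 0.22 in early iPS cells, and for TPM1 it was -0.09 in late and 0.36 in early iPS cells. KCNMB1 had the same order as the tissues at each passage, with 0.28 in late and 0.18 in early iPS cells. By probe, 5 of 11 were higher in the liver line in late iPS cells, where 49.4% of all tested probes were, and 10 of 11 in early iPS cells, where 48.9% were. No member probe differed 2-fold between the lines in either direction, as 1.88% (higher in the liver line) and 1.60% (lower) of all tested probes did in late and 2.81% and 2.60% in early iPS cells. The ES lines differed by more for ACTA2, with rdES4 minus rdES2-1 at -1.24, a fall of at least 2-fold that 2.20% of all tested probes showed. For KCNMB1 and CALD1 the ES lines also differed by more than the iPS lines, at 0.62 and 0.58. The brightest TPM1 probe had 0.39 between the ES lines, near its 0.36 in early iPS cells, and the other TPM1 probes went both ways. TPM2, at 0.07, was not well above background in either ES line. The liver and stomach iPS lines lay on different slides and scan days, so line cannot be told apart from these.

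Set against its own tissue, each iPS array had lower levels of all 11 probes, where 49.9% to 51.1% of all tested probes were higher. This rests on the scaling and did not hold for every probe as raw signal. There KCNMB1 read 182.6 in early and 188.4 in late liver iPS cells, against 146.0 in liver cells. CALD1 read 10010 in early stomach iPS cells, against 7198 in stomach cells. ACTA2 in the liver line minus liver cells was -6.75 at the late and -7.10 at the early passage, and in the stomach line minus stomach cells -4.37 and -4.34. CALD1 was -2.09 and -1.29 in the liver line and -1.07 and -0.51 in the stomach line, and TPM1 was -1.97 and -1.56 in the liver line and -1.01 and -1.05 in the stomach line, late passage first. In the liver line 10 of the 11 probes were at least 2-fold lower at each passage, where 23.6% of all tested probes were at the late and 22.5% at the early passage. In the stomach line 8 of 11 were at the late and 6 of 11 at the early passage, where 24.9% and 24.7% of all tested probes were. The stomach line's counts turn on TPM1 probes that lay on both sides of 2-fold, at -1.15 to -0.86 late and -1.17 to -0.81 early. The liver line's larger distance goes with the higher level of liver cells given above, and the labels do not say that the lines came from the arrayed somatic samples.

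The arrays lay on 3 slides: rdES4, both liver iPS arrays and the liver cells on slide 1, rdES2-1 and the stomach cells on slide 2, and both stomach iPS arrays on slide 3. Slides 1 and 2 each hold an ES and a somatic array, and ES minus somatic could be read within them, with no test. On slide 1 it was -9.56 for ACTA2, -5.15 for TPM2, -1.89 for CALD1, -1.52 for TPM1 and -0.13 for KCNMB1. On slide 2 it was -6.43 for ACTA2, -4.14 for TPM2, -1.47 for CALD1, -1.04 for TPM1 and -0.28 for KCNMB1. The direction was thus the same on each slide for all 5 genes. Of all tested probes, 52.6% were higher in the ES array on slide 1 and 51.3% on slide 2, and the share lower on both was not computed. TPM2 was not well above background on either ES array. For KCNMB1 the values are small, and its ES difference was 0.67 without scaling. With the slide as a block, 10 of 11 probes were called lower in both comparisons with somatic cells. For iPS cells that fit rests on the liver line, and its differences were -6.14 for ACTA2 (limma, adjusted p = 0.0389) and -1.59 for CALD1 (limma, adjusted p = 0.0354).

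Other genes of smooth muscle contraction moved in both directions. Most of them have no probe named here: 1 of 23 listed symbols of the actin filament, 6 of 23 of myosin and its regulation, 14 of 23 of calcium handling and channels, and 4 of 18 of the regulators of smooth muscle did. Among those tested, 1 of 1 actin filament gene, 3 of 5 myosin genes, 4 of 12 calcium and channel genes and 2 of 3 regulators were lower in iPS than in somatic cells, and 1 myosin gene and 2 calcium and channel genes were higher (limma). In ES against somatic cells, the counts were 1 of 1, 2 of 5, 4 of 12 and 2 of 3 lower. Higher in ES cells were 1 myosin gene and 2 calcium and channel genes, the latter not the same pair as in iPS cells. These counts stand beside the shares of all tested probes given above, 32.4% lower and 34.2% higher in iPS and 29.7% lower and 34.2% higher in ES cells. Median log2 differences in iPS against somatic cells were -0.60 for the myosin genes, -1.62 for the calcium and channel genes and -1.29 for the regulators, and in ES against somatic cells -0.21, -1.30 and -1.11.

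ACTB, the cytoskeletal beta actin, was lower by -0.86 ± 0.14 (SE) in iPS (limma, adjusted p = 0.00391) and by -0.81 ± 0.14 (SE) in ES cells (limma, adjusted p = 0.00514). This depended on the scaling, since its difference was -0.04 in iPS and -0.06 in ES cells with quantile normalization and 0.15 and 0.07 with none. Of the genes that set the phosphorylation of myosin, PRKG1, the cGMP-dependent kinase that relaxes smooth muscle, was lower in iPS cells, where 3 of 4 arrays measured it, by -1.89 ± 0.42 (SE; limma, adjusted p = 0.0124) and at least 4.25-fold lower in ES cells (limma, adjusted p = 0.00317), where it was not well above background. The catalytic subunits of myosin phosphatase and related phosphatases split: PPP1CB was higher by 1.29 ± 0.19 (SE) in iPS cells (limma, adjusted p = 0.00294), while PPP1CA was lower by -0.66 ± 0.14 (SE; limma, adjusted p = 0.0110), a sign that turned to 0.35 without scaling. ROCK1, a kinase that restrains myosin phosphatase, was lower in iPS cells by -0.60 ± 0.17 (SE; limma, adjusted p = 0.0265; 0.41 without scaling, and adjusted p = 0.0781 without the liver cells) and had -0.21 in ES cells (limma, adjusted p = 0.318). PRKCA, a protein kinase C, had a difference of -0.14 in iPS cells (limma, adjusted p = 0.488). Without scaling, and with the slide as a block, 0 of these 5 genes were lower in iPS cells by the test. With the slide as a block the higher call of PPP1CB was lost too (1.15, adjusted p = 0.0555).

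Among calcium and channel genes, ABCC9, the sulfonylurea receptor subunit of a potassium channel of smooth and heart muscle, was lower by -5.86 ± 0.88 (SE) in iPS cells (limma, adjusted p = 0.00333). Its level was -3.68 to -3.23 on the 4 iPS arrays and -3.32 and -2.47 on the ES arrays, against 1.09 in liver cells and 3.73 in stomach cells, so here stomach cells were the higher tissue. PLN, phospholamban, a brake on the calcium pump of the sarcoplasmic reticulum, was lower by -3.31 ± 0.44 (SE) in iPS cells, where 2 of 4 arrays measured it (limma, adjusted p = 0.00227; -1.47 with normexp), and at least 13.8-fold lower in ES cells, where none did. CASQ2, a calcium-storing calsequestrin, was lower by -1.38 and CACNB3, a calcium channel subunit, by -1.84 in iPS cells (limma, adjusted p = 0.00270 and 0.000916). Without scaling the CASQ2 call was lost (-0.37; limma, adjusted p = 0.2339), and CACNB3 had -0.83. ATP2B1, a calcium pump of the cell membrane, was higher in iPS cells by 0.93 ± 0.23 (SE; limma, adjusted p = 0.0186). That call was lost with normexp (0.29, adjusted p = 0.0506), with the slide as a block (0.77, adjusted p = 0.1182), with the mean over its probes (0.61, adjusted p = 0.0575) and without the early stomach iPS array (0.77, adjusted p = 0.0520). The other higher gene, ATP2A2, the calcium pump that phospholamban restrains, was at 0.44 with an adjusted p of 0.0494 in limma, and it missed the threshold in 6 of the 8 fits that left out an array. In ES cells ATP2A2 did not pass (0.41; limma, adjusted p = 0.0601). The higher genes there were ATP2B1 and TRPC1, with 1.30 for TRPC1 (limma, adjusted p = 0.0111; -0.08 with normexp).

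The pore-forming partner of KCNMB1, KCNMA1, could not be tested: its brightest probe was well above background only in stomach cells, at a signal of 8.125. Another 6 calcium and channel genes did not pass in iPS against somatic cells. CACNA1C, the pore of the calcium channel that triggers contraction, was split between the somatic cells: its level was -4.41 to -2.89 on the iPS arrays and -3.01 and -3.81 on the ES arrays, against -4.18, not well above background, in liver cells and 1.80 in stomach cells. Of this list's counts, the 4 lower became 8 in iPS and 7 in ES cells without the liver cells, and 9 and 7 with normexp.

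TGFB2, a transforming growth factor that induces contractile genes in mesenchymal cells, was lower by -3.58 ± 0.38 (SE) in iPS cells (limma, adjusted p = 0.00109), and EDNRA, the endothelin receptor that contracts smooth muscle, by -1.29 ± 0.18 (SE; limma, adjusted p = 0.00245). The EDNRA call was lost with the slide as a block (-1.30, adjusted p = 0.0584) and without scaling (-0.28, adjusted p = 0.2350). ANKRD1, a muscle ankyrin repeat protein, did not pass, with 0.13 ± 2.92 (SE; limma, adjusted p = 0.972). Its level was -0.53 to 1.51 in iPS cells and -0.79 and -0.59 in ES cells, against 5.05 in liver cells and -4.21 in stomach cells, on either side of them. AGTR1, an angiotensin receptor, was well above background only in liver cells, at a signal of 131.5.

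**Figure D5:**
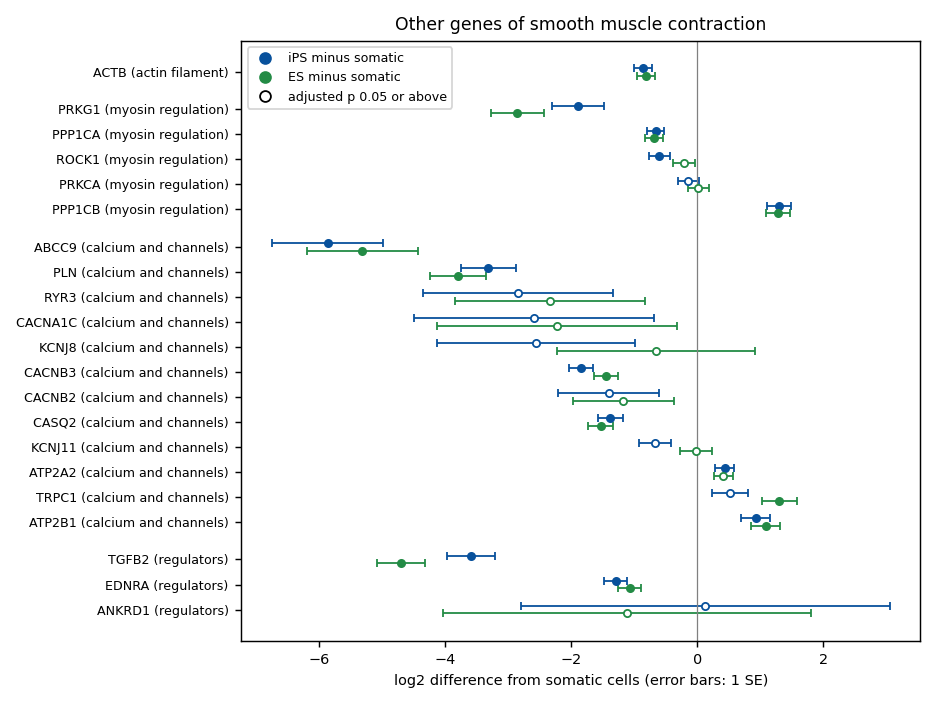
Log2 difference from somatic cells (horizontal axis, error bars of 1 SE) for the 21 tested genes of the 4 lists on smooth muscle contraction, in iPS minus somatic and ES minus somatic cells, with open points where the adjusted p was 0.05 or above. ABCC9, TGFB2 and PLN lie farthest below 0 among the called genes, and PPP1CB and ATP2B1 lie above it in each comparison.

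The striated muscle genes had calls in both directions. Of 7 tested, 4 were higher in iPS than in somatic cells and 1 was lower (limma), against 2 and 3 with normexp. Of all tested probes, 34.2% were higher and 32.4% lower. The 4 higher genes were TNNC2, CKMT2, CASQ1 and RYR1. They passed the filter for testing only through iPS and ES arrays, which largely set their direction. TNNC2, the calcium sensor of fast skeletal muscle troponin, was at least 189.7-fold higher in iPS and 146.3-fold higher in ES cells, and CKMT2, the creatine kinase of muscle mitochondria, at least 24.6-fold and 22.7-fold, and neither gene was well above background in somatic cells. These bounds hold for the 75th percentile scale: with normexp, which compresses dim probes, the log2 difference in iPS cells was 4.46 for TNNC2 and 1.95 for CKMT2. TNNI2, the inhibitory troponin of fast muscle, was lower by -2.36 ± 0.53 (SE) in iPS cells (limma, adjusted p = 0.0129), with -1.18 under normexp and no call with the slide as a block (-2.24, adjusted p = 0.1115). These were single genes out of 24 listed symbols, with no value here for most of the rest.

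The patterns of the 5 genes over the 8 arrays are given as correlations. Pearson r was 0.958 between TPM1 and TPM2, 0.918 between ACTA2 and TPM2, 0.916 between CALD1 and TPM1, 0.906 between CALD1 and TPM2, 0.857 between ACTA2 and CALD1 and 0.844 between ACTA2 and TPM1. Against KCNMB1 it was 0.785 for TPM1, 0.645 for TPM2, 0.599 for CALD1 and 0.391 for ACTA2. TPM2 was not well above background on 5 of the 8 arrays, so its r values rest partly on levels that were not measured. All are descriptions over arrays that share lines and that differ above all between 2 somatic and 6 pluripotent samples.

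Among 504 other named genes, those with the most similar pattern over the 8 arrays were found for each member. For ACTA2 these were CAPNS1, CLIC1 and PRKG1, with r of 0.980, 0.973 and 0.973. For TPM1 they were DKK1, MMP9 and ST7 (0.981, 0.976 and 0.969), and for TPM2 they were PTGS1, F3 and CASQ2 (0.994, 0.990 and 0.989). For CALD1 they were TRIM5, LASP1 and EZR (0.970, 0.957 and 0.957), and for KCNMB1 they were TRPV5, TMEM109 and ROCK1 (0.986, 0.970 and 0.913). The r of KCNMB1 with TRPV5 was thus above its r with any of the other 4 members.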

How the data were processed

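RNA of 8 samples was measured on 1-colour Agilent arrays, whose number limits the precision. Per the file headers, the deposited intensities were written by the scanner software Agilent Feature Extraction 10.5.1.1 after background and spatial trends had been subtracted, with no scaling between arrays. The authors' deposited log2 value table correlated at 1 with these values once scaled to the 75th percentile and centred per probe, and served as an alternative only.

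Each array held 45220 spots, 1417 of them controls. The log2 processed signal minus the array's 75th percentile was taken, repeated spots were averaged, and 19 probes with uneven spots, none a member, were left out. Symbols came from a RefSeq table of rabbit assembly mOryCun1.1, matched on accessions without versions and used only for names; 1933 probes of 680 genes matched. Probes well above background on both arrays of at least 1 of 4 groups were tested (28854). The filter largely set the direction for probes that passed only through 1 class. Among the members and listed genes called against somatic cells, TPM2, DCN and PLN passed only through the somatic arrays. TNNC2, CKMT2, CASQ1, RYR1, PODXL and ATP4A passed only through iPS and ES arrays. The probe with the highest mean level stood for a gene.

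The tests used limma (version 3.58.1, under R 4.3.3), two-sided, Benjamini-Hochberg adjusted over all tested probes at a threshold of 0.05, on code tested on simulated data. For comparisons of iPS, ES and somatic cells, both passages of an iPS line were averaged, which left 6 units; comparisons by passage used 8 arrays in 4 groups. Where a group had no array with the probe well above background, the fold is given as "at least": the dim group's level is then the mean over its arrays of the probe's own signal or the array's lowest signal with that mark, whichever was higher. The alternatives were quantile normalization, no scaling, normexp (offset 50), stricter or no filters, the value table, the mean over probes, slide, scan day or line as blocks, and each array left out. Normexp on median signals, the files having no mean signal, and the scan day block were chosen after the files were seen.

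Arrays of the same iPS line come from 1 line, so their numbers pair late with early arrays (correlation of deviations from the group mean 0.224); for iPS lines and tissues it was 0.0223. Members and the 11 gene lists were chosen with earlier results of these data known. Of each list up to 5 genes with the largest moderated statistic in iPS against somatic cells were named, and for each member the 3 genes of highest r. CACNA1C, the untested genes and the fibroblast levels were named after their values were seen. Of 158 listed symbols 51 had a probe, none of them endothelial.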

Additional observations from a re-analysis of the deposited data

Results flagged for a closer look

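In late against early iPS cells the differences of the liver and the stomach line had opposite signs for 3 genes. Those of the stomach line were smaller than the median SD between repeated spots on its arrays, 0.1066 (early) and 0.1001 (late). They cannot be told from no change, and nor can KCNMB1 in the liver line, where that SD was 0.0621 and 0.0777. The difference between the lines (liver line minus stomach line, each late minus early) was 0.39 for ACTA2, with 0.35 in the liver line and -0.04 in the stomach line. It was -0.45 for TPM1, with -0.41 in the liver line and 0.04 in the stomach line. This holds for the brightest TPM1 probe: in the stomach line 4 of the 7 probes were higher and 3 lower in late iPS cells, between -0.09 and 0.06, while all 7 were lower in the liver line. For KCNMB1 it was 0.10, with 0.04 in the liver line and -0.06 in the stomach line. With 1 array per line and passage these differences were not tested. The liver line's arrays share a slide with each other, and so do the stomach line's.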

How the results depend on the processing

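With 2 lines or samples per class, the members' calls rest on few degrees of freedom, and TPM2 on a probe below background in most iPS and ES cells. Without scaling between arrays, 2 of 11 member probes were called in iPS and 2 in ES against somatic cells. Leaving out each array in turn gave 8 to 10 in iPS and 2 to 10 in ES against somatic cells, the 2 being without rdES2-1, and 0 in every other comparison. The remaining alternatives gave 9 to 11 in iPS and 9 to 10 in ES against somatic cells and 0 elsewhere. With the tissue of origin as a replicate block 10 of 11 were called in iPS against somatic cells, and with the line as a replicate block 0 of 11 in late against early iPS cells; neither block changed a gene's call among the 5.

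Signs turned for differences near 0. KCNMB1 had 0.42 in iPS and 0.67 in ES against somatic cells without scaling, and -0.51 to 0.11 in ES against somatic cells over arrays left out. TPM1 in iPS against ES cells had 0.02 without scaling and -0.31 to 0.08 over arrays left out. TPM2 in iPS against ES cells had -0.05 with normexp and -0.14 to 0.43 over arrays left out, and in early iPS against ES cells -0.02 with normexp. In late against early iPS cells ACTA2 ranged from -0.28 to 0.59 and KCNMB1 from -0.15 to 0.13 over arrays left out, and KCNMB1 had 0.01 with quantile normalization. CALD1 in late iPS against ES cells had -0.02 with normexp, -0.25 with the slide as a block and -0.20 to 0.38 over arrays left out. TPM1 in early iPS against ES cells had 0.12 without scaling, 0.04 as the mean of its probes and -0.22 to 0.17 over arrays left out.

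Of the other genes, against somatic cells without scaling, ACTB had 0.15 in iPS and 0.07 in ES cells, PPP1CA 0.35 and 0.19, ROCK1 0.41 and 0.66, and PRKCA 0.87 in iPS cells. PRKCA had 0.12 in iPS cells with quantile normalization, -0.58 in ES cells with normexp and -0.12 to 0.17 in ES cells over arrays left out. With normexp, CASQ1 had -0.29 in iPS and -0.28 in ES cells, TRPC1 -0.36 and -0.08, RYR1 -0.03 in iPS cells and ANKRD1 -1.02 in iPS cells. ANKRD1 in iPS cells had -2.20 with the slide as a block and -4.51 to 4.76 over arrays left out, and in ES cells -5.74 to 3.52. The causes were not tested.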
